A study of Bos grunniens and Bos grunniens x Bos taurus with 12 samples.

Results

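The enzymes that write, copy, oxidise and excise DNA methylation were followed in ribosome profiles of yak and cattle–yak testis. They were taken from the deposited gene tables by gene symbol, from a list of 10 names, and 8 were found among 20965 genes: DNMT1 (ENSBGRG00000002388), UHRF1 (ENSBGRG00000013371), UHRF2 (ENSBGRG00000006794), DNMT3A (ENSBGRG00000015176), DNMT3B (ENSBGRG00000004279), TET1 (ENSBGRG00000009961), TET3 (ENSBGRG00000010501) and TDG (ENSBGRG00000019887). The symbols DNMT3L and TET2 were absent. A symbol was given for 13662 of the genes, and the other 7303 rows carried none.

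DNA methylation in mammals is the addition of a methyl group to cytosine, mostly where a guanine follows. DNMT1 copies the mark onto the new strand after replication, guided by UHRF1, whereas DNMT3A and DNMT3B set new marks, and in male germ cells DNMT3L stimulates them. TET dioxygenases oxidise 5-methylcytosine, and TDG excises the more oxidised products so that base excision repair can restore an unmodified cytosine. Male germ cells erase most of their methylation as primordial germ cells, regain it before birth, and need it to keep transposons silent through meiosis.

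Ribo-seq, which sequences the mRNA fragments covered by ribosomes (ribosome footprints, RFs), was performed on whole testis of male yak (Bos grunniens) of 6 months (labelled juvenile), 18 months (labelled puberty) and 4 years (labelled sexual maturity), and of cattle–yak of 4 years (labelled sexual maturity), with 3 libraries per group. The labels name no treatment. The cattle–yak is the hybrid of the 2 species, here of Jersey bulls and Gannan yak cows, whose males are sterile. Its RFs were aligned to the yak genome, and its testes were taken by castration, whereas the methods name euthanasia for the adult yak and the labels name castration for every group. A comparison of cattle–yak with yak of 6 months differs in both genotype and age.

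Library totals ran from 16304058 to 17862516 counts in yak of 4 years, from 21309151 to 24542362 at 18 months, from 25816963 to 37167651 at 6 months and from 38437889 to 52616039 in cattle–yak. Markers of germ cells and of Sertoli cells were present in all groups, as the labelled tissue requires, but the yak of 18 months were not uniform. Replicate 2 at 18 months had a summed spermatid-marker level of 7303 FPKM (counts per unit of gene length and of library total), against 2.86 and 17.2 in replicates 1 and 3, 9946 to 12713 in yak of 4 years, 1.41 to 1.70 in yak of 6 months and 2.98 to 32.4 in cattle–yak. Its summed spermatocyte markers were also above those of the other 18-month libraries, at 707 FPKM against 191 and 266. Fold changes, list counts and list medians that include the 18-month group are therefore given with and without this library, and group means of ratios beside its own value.

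**Figure D1:**
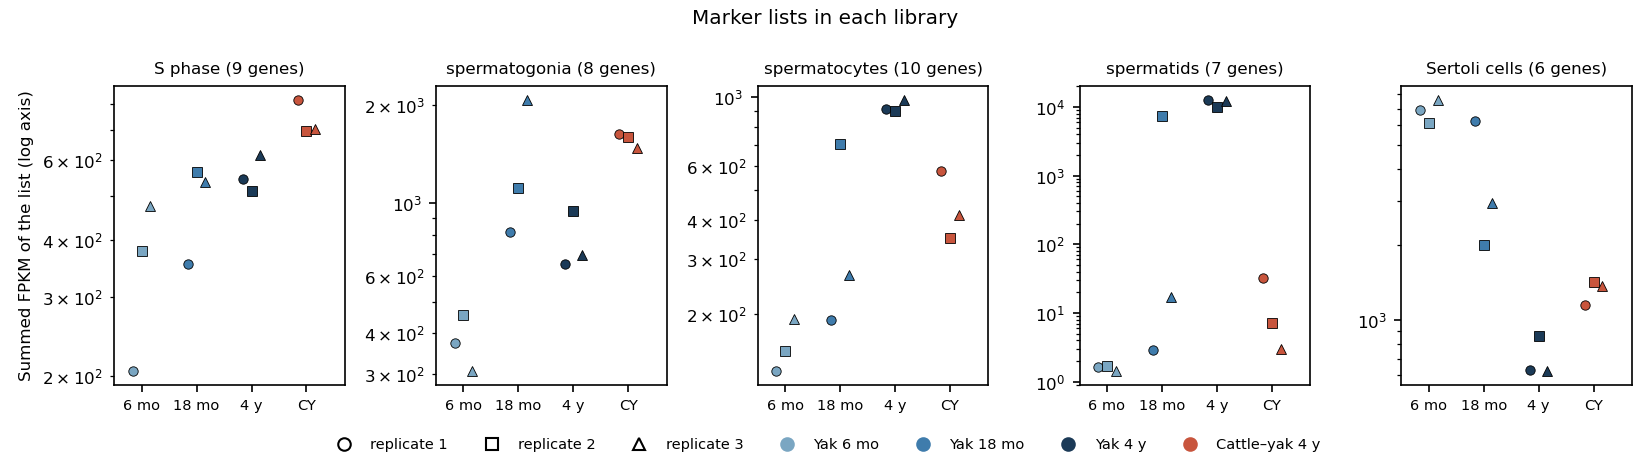
Summed FPKM of the detected markers of cells in S phase, spermatogonia, spermatocytes, spermatids and Sertoli cells in each of the 12 libraries (log axis, with symbols for the replicates and colours for the groups; CY, cattle–yak). Replicate 2 at 18 months lies at 7303 FPKM in the spermatid panel, beside the yak of 4 years, while the other 2 libraries of its group lie at 2.86 and 17.2.

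DNMT3B was lower and TDG higher in cattle–yak than in yak of 4 years, and UHRF1 and DNMT3B rose while TET1 and TDG fell from 6 months to 4 years. TET3 also fell over that span, but its call was lost with library totals alone (-0.57, edgeR adjusted p = 0.187) and without replicate 1 or 3 of the yak of 4 years. Its adjusted p was below 0.05 in 9 of 14 alternative analyses. Differentially translated genes (DTGs) passed edgeR's quasi-likelihood test at an adjusted p below 0.05 and moved by 1 or more on the log2 scale, up or down. Of the 8, 5 were DTGs in yak of 4 years over yak of 6 months, where 55.7% of all 16133 tested genes were. Only DNMT3B and TDG, 2 of the 8, were DTGs in cattle–yak over yak of 4 years, where 44.0% of 16498 genes were, and in cattle–yak over yak of 6 months 2 of the 8, where 37.8% of 15571 genes were. By adjusted p alone the counts were 8 (72.5% of all genes), 4 (65.7%) and 4 (57.7%) of the 8. The 2 of 8 called in each cattle–yak comparison were no larger a share than that of all genes. In bulk testis fewer cells of a type and fewer RFs per cell cannot be told apart. RNA-seq was not used here, so a change in mRNA level and one in its translation cannot be told apart either.

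No member was a DTG between neighbouring ages. By edgeR 0 of the 8 passed in yak of 18 months over 6 months (0.0672% of 14874 genes called). There 3 members had an unadjusted p under 0.05, as did 3837 of all tested genes. In yak of 4 years over 18 months 0 of the 8 passed (0.0371% of 16175 genes called). There 4 members had an unadjusted p under 0.05, as did 5731 of all tested genes. DESeq2 called 1 member, TET1, in each. Of all genes it called 1061 higher and 807 lower of 14874 in the first, and 2092 and 2291 of 16175 in the second. Without replicate 2 at 18 months 4 members were DTGs in yak of 4 years over 18 months, where 44.6% of 16377 genes were called, and still 0 in yak of 18 months over 6 months, where 0.504% of 15071 genes were called. In the latter, leaving it out turned DNMT1 from 0.11 to -0.26 and TET3 from -0.12 to 0.016 on the log2 scale (0.24 with library totals alone and all libraries). DNMT3A, DNMT3B, TET1, UHRF1, UHRF2 and TDG were at -0.38, 0.69, -1.36, 0.93, -0.36 and -0.50 without it. With all libraries they were at -0.41, 0.94, -1.60, 1.22, -0.45 and -0.65. From 18 months to 4 years DNMT3A went from -0.35 to -0.37 and UHRF2 from -0.32 to -0.40 when replicate 2 at 18 months was left out. The FPKM ranges of the groups did not overlap for 4 of the 8 genes between 6 and 18 months (37.8% of all genes), 5 between 18 months and 4 years (54.5%), 6 between 6 months and 4 years (76.4%), 4 between yak of 4 years and cattle–yak (71.1%) and 6 between yak of 6 months and cattle–yak (69.8%).

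**Figure D2:**
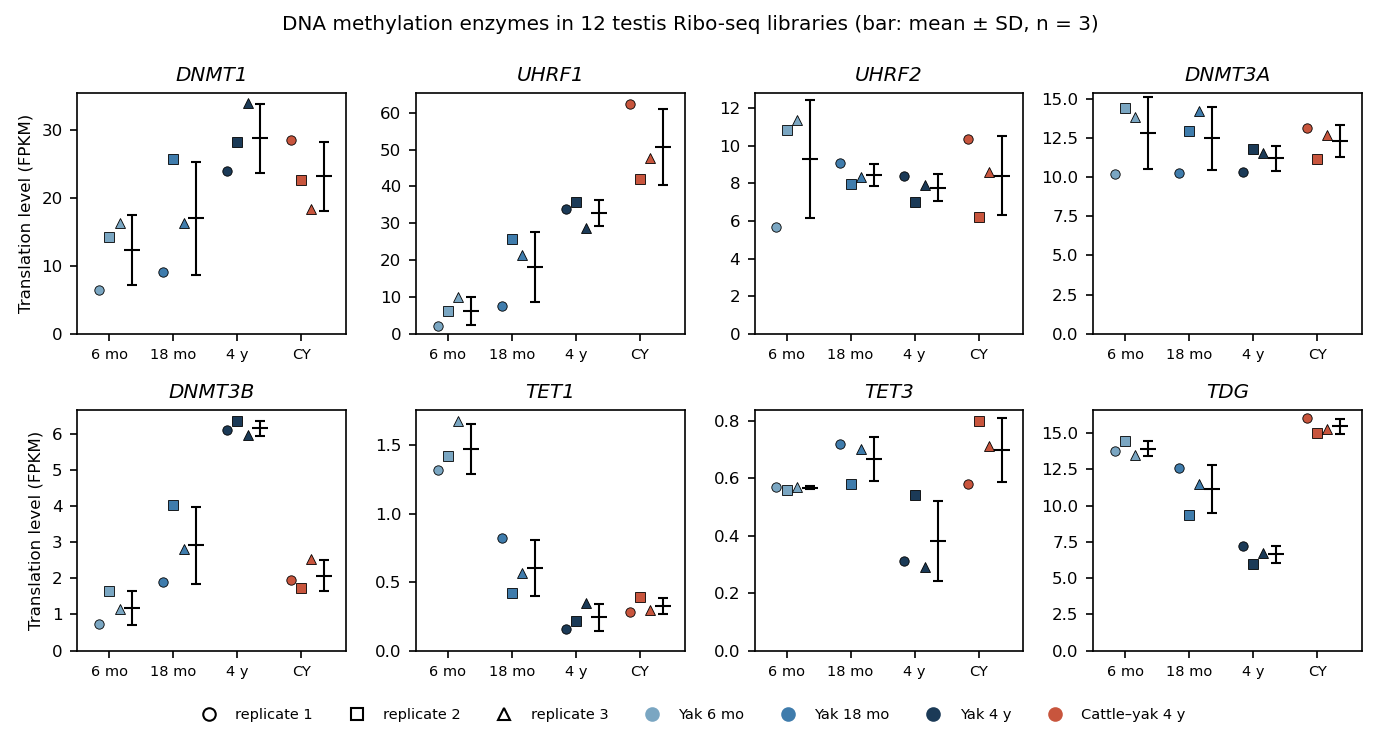
Translation level (FPKM) of the 8 genes in each of the 12 libraries, with the mean ± SD of each group (n = 3; symbols for the replicates, colours for the groups; CY, cattle–yak). DNMT3B and TDG part the yak of 4 years from the cattle–yak, DNMT3B with 5.95 to 6.36 against 1.72 to 2.54 and TDG with 5.98 to 7.18 against 15.01 to 16.06.

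The scaling mattered wherever the yak of 6 months took part. FPKM is relative to the library total, whereas edgeR's fold changes used TMM factors, computed anew for each pair of groups. Computed over all 12 libraries together, TMM factors were 0.698 to 0.824 in the 6-month libraries and 0.878 to 1.17 in the others. Scaling by library totals alone moved the median log2 fold change of all genes by 0.57 in yak of 4 years over 6 months, by 0.54 in cattle–yak over yak of 6 months, by 0.37 in yak of 18 months over 6 months and by 0.18 in yak of 4 years over 18 months, but by -0.01 in cattle–yak over yak of 4 years. With it the DTGs of all genes split into 6596 higher and 2493 lower in yak of 4 years over 6 months, in place of 5009 and 3985, and into 4867 higher and 1875 lower in cattle–yak over yak of 6 months, in place of 2823 and 3067. Fold changes below are with TMM, and for the enzymes and for the gene lists those with library totals alone stand beside them where the call, the list count or the direction differed.

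Of the maintenance genes, DNMT1, the methyltransferase that copies the mark at replication, was translated at 6.50, 14.19 and 16.30 FPKM in the 3 yak of 6 months, 9.02, 25.67 and 16.26 at 18 months, 23.97, 28.29 and 34.01 at 4 years and 28.49, 22.64 and 18.35 in cattle–yak. Every yak of 4 years and every cattle–yak lay above every yak of 6 months, while the 18-month libraries overlapped all other groups. Its log2 fold change in yak of 4 years over 6 months was 0.68 ± 0.268 (SE, n = 3 against 3; edgeR adjusted p = 0.0461), short of the fold threshold, and with library totals alone it was 1.22 (adjusted p = 0.00499) and a DTG. The adjusted p exceeded 0.05 when any library but replicate 3 at 6 months was left out, with log2 fold changes of 0.41 to 0.90. From 18 months to 4 years it was 0.62 (adjusted p = 0.20), and 0.99 (adjusted p = 0.011) without replicate 2 at 18 months. The hybrid over yak of 4 years gave -0.29 with a 95% confidence interval of -0.68 to 0.09, which did not pass.

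UHRF1, the protein that recognises hemimethylated DNA and brings DNMT1 to it, had the largest range of levels among the maintenance genes. It was translated at 2.2, 6.24 and 9.90 FPKM in yak of 6 months, 7.51, 25.70 and 21.28 at 18 months, 33.80, 35.81 and 28.76 at 4 years and 62.27, 42.06 and 47.77 in cattle–yak. The 3 cattle–yak were the 3 highest libraries, the yak of 4 years the next 3, and the 6-month and 18-month yak overlapped through replicate 1 at 18 months.

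UHRF1 rose from 6 months to 4 years by a log2 fold change of 1.88 ± 0.397 (3.69-fold; edgeR adjusted p = 0.00229) and was 2.55 ± 0.423 higher in cattle–yak than in yak of 6 months (5.84-fold; adjusted p = 0.00122), a DTG with each library left out in turn. The comparison of cattle–yak with yak of 4 years gave 0.64 ± 0.178 (adjusted p = 0.0124), below the fold threshold. It was 0.45 without replicate 1 of the cattle–yak, and the adjusted p was 0.243 when all 12 libraries shared one estimate of the spread. Between 18 months and 4 years the log2 fold change was 0.72 (adjusted p = 0.210), and without replicate 2 at 18 months it was 1.02 (adjusted p = 0.0432) and a DTG.

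UHRF2, the paralog of UHRF1, was translated at 5.70, 10.84 and 11.39 FPKM in yak of 6 months, 9.06, 7.94 and 8.34 at 18 months, 8.39, 7.0 and 7.92 at 4 years and 10.38, 6.20 and 8.6 in cattle–yak. All 4 groups overlapped. The log2 fold change in yak of 4 years over 6 months was -0.80 ± 0.226 (edgeR adjusted p = 0.0105), below the fold threshold, but -0.26 (adjusted p = 0.389) with library totals alone and -1.02 (adjusted p = 0.000575), a DTG, without replicate 1 at 6 months. No other comparison of UHRF2 passed. That of cattle–yak over yak of 6 months was at the threshold, with -0.67 ± 0.254 (edgeR adjusted p = 0.0501), and the adjusted p was below 0.05 in 3 of 14 alternatives. That of cattle–yak over yak of 4 years was 0.12 with a 95% confidence interval of -0.30 to 0.53.

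Replication genes, used as markers of S phase, when DNMT1 and UHRF1 act, varied in the same libraries. The summed FPKM of 9 replication genes was 205 to 476 in the juvenile yak, 354 to 565 in the pubertal and 514 to 615 in the mature yak, and 697 to 817 in cattle–yak, and replicate 1 was the lowest of its group at 6 and at 18 months, as for DNMT1 and UHRF1. Of these 9 genes 0 were DTGs in cattle–yak over yak of 4 years by edgeR or DESeq2, where edgeR called 44.0% of all genes. There 5 had an unadjusted p under 0.05, as did 11364 of 16498 genes. In yak of 4 years over 6 months 2 rose and 1 fell (31.0% and 24.7% of all genes), or 4 and 0 with library totals alone, and 4 exceeded in cattle–yak their level in yak of 6 months (18.1% of all genes), or 7 with library totals alone. Relative to MCM2, a subunit of the replicative helicase, the level of UHRF1 was 0.288 ± 0.0529 (SD, n = 3) in the juvenile yak, 0.419 ± 0.154 in the pubertal (0.575 in replicate 2) and 0.710 ± 0.111 in the mature yak, and 0.665 ± 0.0388 in cattle–yak. That of DNMT1 to MCM2 was 0.636 ± 0.0708, 0.404 ± 0.148 (0.575 in replicate 2), 0.618 ± 0.0869 and 0.305 ± 0.0429 in the same order. The result depended on the reference gene. Relative to PCNA, the replication clamp, UHRF1 was 0.0312 ± 0.0105, 0.0897 ± 0.0383 (0.114 in replicate 2), 0.148 ± 0.0400 and 0.182 ± 0.0392, and DNMT1 was 0.0668 ± 0.00669, 0.0840 ± 0.0294 (0.113 in replicate 2), 0.127 ± 0.0233 and 0.0829 ± 0.0169. From 6 months to 4 years DNMT1 was thus higher relative to PCNA but not to MCM2. Between cattle–yak and yak of 4 years the ratios of UHRF1 overlapped with both references and those of DNMT1 were lower in the hybrid with both, without overlap. The part of replicating cells in the levels of DNMT1 and UHRF1 was not tested.

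Of the de novo enzymes, DNMT3A stayed between 10.18 and 14.38 FPKM in all 12 libraries. It was read at 10.18, 14.38 and 13.85 FPKM in yak of 6 months, 10.28, 12.94 and 14.20 at 18 months, 10.30, 11.77 and 11.51 at 4 years and 13.13, 11.17 and 12.67 in cattle–yak. All groups overlapped, and cattle–yak over yak of 4 years gave a log2 fold change of 0.17 with a 95% confidence interval of -0.09 to 0.42. Against the yak of 6 months the log2 fold change was -0.80 ± 0.146 in yak of 4 years (edgeR adjusted p = 0.00102) and -0.61 ± 0.135 in cattle–yak (adjusted p = 0.00516), both below the fold threshold, but -0.24 (adjusted p = 0.276) and -0.08 (adjusted p = 0.706) with library totals alone.

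DNMT3B, the second de novo methyltransferase, was the 1 member called lower in cattle–yak than in yak of 4 years. Its FPKM was 0.73, 1.66 and 1.16 in yak of 6 months, 1.91, 4.03 and 2.80 at 18 months, 6.11, 6.36 and 5.95 at 4 years and 1.95, 1.72 and 2.54 in cattle–yak. The yak of each age lay above all younger yak, and the cattle–yak overlapped the yak of 18 months and lay below every yak of 4 years.

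DNMT3B was 3.1-fold lower in cattle–yak than in yak of 4 years, with a log2 fold change of -1.63 ± 0.194 (edgeR adjusted p = 0.00014), and was a DTG in all 14 alternative analyses, 6 of which each left out 1 library. From 6 months to 4 years it rose 3.50-fold, by 1.81 ± 0.268 (adjusted p = 0.00028), also in all 14. The step from 18 months to 4 years was 0.92 ± 0.258 (adjusted p = 0.0856), and without replicate 2 at 18 months it was 1.17 (adjusted p = 0.00519) and a DTG. The step from 6 to 18 months was 0.94 ± 0.384 (adjusted p = 0.183). Cattle–yak over yak of 6 months gave 0.20 with a 95% confidence interval of -0.40 to 0.81, and 0.72 (adjusted p = 0.0922) with library totals alone, though the FPKM ranges did not overlap.

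Cell type markers moved in the same comparisons as DNMT3B. Between yak of 4 years and cattle–yak, where 17.1% of all genes were higher and 27.0% lower, all 7 spermatid markers were lower in the hybrid, 5 of 10 spermatocyte markers were lower and none higher, and the summed spermatocyte level was 352 to 578 FPKM against 901 to 980. In the same comparison 4 of 8 spermatogonial, 3 of 6 Sertoli, 3 of 3 Leydig and 6 of 6 peritubular myoid markers were higher, 1 of 6 endothelial markers was lower, and 1 of 7 macrophage markers was higher and 2 lower. From 6 months to 4 years, where 31.0% of all genes rose and 24.7% fell, 7 of 7 spermatid and 9 of 10 spermatocyte markers rose, 3 of 8 spermatogonial markers rose and 1 fell, and 5 of 6 Sertoli, 3 of 3 Leydig, 3 of 6 myoid and 4 of 6 endothelial markers fell, with 4 of 7 macrophage markers lower and 1 higher. With library totals alone 5 spermatogonial markers rose and 1 fell, 2 myoid markers rose and 2 fell, 1 endothelial marker rose besides the 4 that fell, and the counts of the other cell types stayed. The spermatid gene SUN5 had no count in any yak of 6 months. The part of these cells in the levels of the methylation enzymes was not tested.

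The row whose deposited description reads as DNMT3-like protein, the germline cofactor of DNMT3A and DNMT3B, had no symbol (ENSBGRG00000022411) and was not counted as a member. It held 0, 4 and 4 counts in yak of 6 months, 7, 1 and 7 at 18 months, 1, 8 and 0 at 4 years and 0, 5 and 0 in cattle–yak. These levels lie near the limit that a count of 0 allows (3 counts, or 0.0570 to 0.184 CPM, counts scaled to the library total, in these libraries). That limit covers counting error only. The filter on low counts left the row out of every comparison, so no test of it is given.

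Of the oxidising enzymes, TET1 was translated at 1.32, 1.42 and 1.68 FPKM in yak of 6 months, 0.82, 0.42 and 0.57 at 18 months, 0.16, 0.22 and 0.35 at 4 years and 0.28, 0.39 and 0.30 in cattle–yak. Every 6-month library was above every other library, every 18-month library above those of both mature groups, and the mature groups overlapped. The counts behind these levels were 219 to 340, 57 to 125, 18 to 37 and 73 to 97.

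TET1 fell 9.04-fold from 6 months to 4 years, a log2 fold change of -3.18 ± 0.316 (edgeR adjusted p = 2.3e-05), the largest difference of any member in the 5 comparisons, and was 6.63-fold lower in cattle–yak than in yak of 6 months (-2.73 ± 0.227, adjusted p = 4.26e-05). Both were DTGs with each library left out, but their smallest alternative estimates were -0.99 and -0.90, short of the fold threshold. The steps between ages were -1.60 ± 0.380 to 18 months (adjusted p = 0.0808) and -1.55 ± 0.491 from there to 4 years (adjusted p = 0.0982). The first was -2.02 (adjusted p = 0.0172) and a DTG without replicate 1 at 18 months, and the second -1.77 (adjusted p = 0.0148) and a DTG without replicate 2 at 18 months. The mature groups, cattle–yak over yak, differed by 0.43 with a 95% confidence interval of -0.31 to 1.17.

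TET3 was read at 0.57, 0.56 and 0.57 FPKM in yak of 6 months, 0.72, 0.58 and 0.70 at 18 months, 0.31, 0.54 and 0.29 at 4 years and 0.58, 0.80 and 0.71 in cattle–yak. The yak of 4 years were the 3 lowest libraries, and replicate 2 among them was close to the younger yak. Counts were low, 25 to 51 at 4 years and 144 to 163 in cattle–yak.

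TET3 was lower in yak of 4 years than at 6 months by a log2 fold change of -1.15 ± 0.355 (2.22-fold; edgeR adjusted p = 0.0164) and was a DTG. The adjusted p was 0.0594 without replicate 1 and 0.0556 without replicate 3 of the yak of 4 years, and 0.187, with -0.57, with library totals alone. It was below 0.05 in 9 of the 14 alternatives, whose log2 fold changes ran from -1.48 to -0.19. Cattle–yak over yak of 4 years gave 0.88 ± 0.327 (adjusted p = 0.0426), below the fold threshold, and 1.28 (adjusted p = 0.015), a DTG, without replicate 2 of the yak of 4 years. The adjusted p was above 0.05 in 6 of the 14 alternatives. From 18 months to 4 years it was -1.01 (adjusted p = 0.128), and -1.12 (adjusted p = 0.0514) without replicate 2 at 18 months. Relative to yak of 6 months the cattle–yak gave -0.25 with TMM and 0.29 with library totals alone, and neither passed.

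A row without symbol but described as the dioxygenase TET2 (ENSBGRG00000004264), also not counted, ran in the direction of TET1. It was read at 1.40, 1.44 and 1.48 FPKM in yak of 6 months, 1.23, 0.51 and 0.45 at 18 months, 0.21, 0.24 and 0.33 at 4 years and 0.52, 0.33 and 0.35 in cattle–yak. It was lower in yak of 4 years than at 6 months by a log2 fold change of -3.04 ± 0.319 (edgeR adjusted p = 3.2e-05) and lower in cattle–yak than at 6 months by -2.37 ± 0.286 (adjusted p = 0.000244). Cattle–yak over yak of 4 years gave 0.66 ± 0.392 (adjusted p = 0.170).

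TDG, the glycosylase that removes oxidised methylcytosine, had lower levels in the yak of 4 years than in any other library. It was translated at 13.73, 14.48 and 13.50 FPKM in yak of 6 months, 12.60, 9.36 and 11.49 at 18 months, 7.18, 5.98 and 6.73 at 4 years and 16.06, 15.01 and 15.28 in cattle–yak. No group overlapped another, in the rising order yak of 4 years, 18 months, 6 months and cattle–yak.

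TDG was 2.35-fold higher in cattle–yak than in yak of 4 years, with a log2 fold change of 1.23 ± 0.155 (edgeR adjusted p = 0.000194), a DTG in all 14 alternatives. It fell 3.11-fold from 6 months to 4 years (-1.64 ± 0.172, adjusted p = 3.29e-05). The smallest alternative estimate of that fall was -0.97, short of the fold threshold. The step from 18 months to 4 years was -0.96 ± 0.274 (adjusted p = 0.0884), and without replicate 2 at 18 months it was -1.09 (adjusted p = 0.0073) and a DTG. The step from 6 to 18 months was -0.65 ± 0.250 (adjusted p = 0.165). Cattle–yak over yak of 6 months changed direction with the scaling, from -0.39 ± 0.134 (adjusted p = 0.0361) with TMM to 0.15 (adjusted p = 0.390) with library totals alone.

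**Figure D3:**
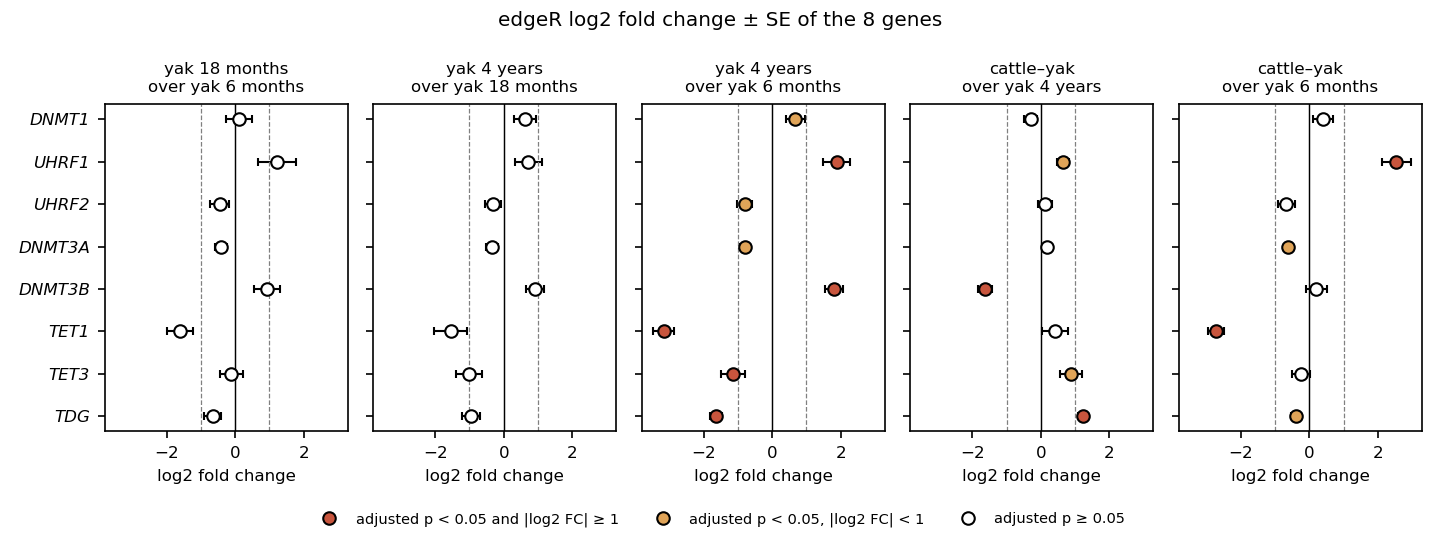
Log2 fold changes ± SE of the 8 genes from edgeR in the 5 comparisons (x axis, log2 scale; red, DTG; orange, adjusted p below 0.05 only; white, neither; dashed lines, the fold threshold). In cattle–yak over yak of 4 years the 2 red points are DNMT3B at -1.63 and TDG at 1.23, and in yak of 4 years over 6 months the 5 red points reach from TET1 at -3.18 to UHRF1 at 1.88.

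Over the 8 genes the median log2 fold change was -0.80 in yak of 4 years over 6 months, against 0.08 over all tested genes, 0.30 against -0.00 in cattle–yak over yak of 4 years, -0.32 against -0.02 in cattle–yak over yak of 6 months, -0.26 against 0.05 in yak of 18 months over 6 months and -0.34 against 0.01 in yak of 4 years over 18 months. With library totals alone these medians were, in the same order, -0.25 against 0.64, 0.28 against -0.01, 0.22 against 0.52, 0.09 against 0.42 and -0.14 against 0.19, so the sign turned where the cattle–yak and the 18-month yak were set against the yak of 6 months. Without replicate 2 at 18 months the medians for 18 months over 6 months and 4 years over 18 months were -0.31 against -0.01 and -0.38 against 0.04. The comparisons share libraries, so these values are not independent of each other. DNMT3B and TDG, which act on opposite sides of the cycle, were at opposite ends in the mature yak. DNMT3B had its highest and TDG its lowest FPKM there.

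The balance between paralogs and partners was also taken within each library, which removes the scaling. DNMT3B made up 6.69%, 10.3% and 7.73% of the summed DNMT3A and DNMT3B FPKM in yak of 6 months, 15.7%, 23.7% and 16.5% at 18 months, 37.2%, 35.1% and 34.1% at 4 years and 12.9%, 13.3% and 16.7% in cattle–yak. The mean share was 35.5% ± 1.61 (SD, n = 3) in yak of 4 years and 14.3% ± 2.07 in cattle–yak, a difference of -21.1 percentage points with no overlap (two-sided exact permutation p = 0.10, the smallest that 3 against 3 allows, and 0.125 after Benjamini-Hochberg adjustment over 20 such tests).

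UHRF1 changed place with UHRF2 as the yak aged. The ratio of their FPKM was 0.386, 0.576 and 0.869 in yak of 6 months, 0.829, 3.24 and 2.55 at 18 months, 4.03, 5.12 and 3.63 at 4 years and 6.00, 6.78 and 5.55 in cattle–yak. UHRF2 was thus the higher of the 2 per length in every yak of 6 months and UHRF1 in every mature animal. The ratio of UHRF1 to DNMT1 was 0.462 ± 0.136 (SD, n = 3) in the juvenile, 1.05 ± 0.241 in the pubertal (1.001 in replicate 2) and 1.17 ± 0.293 in the mature yak, and 2.22 ± 0.374 in cattle–yak, with no overlap between the cattle–yak and any yak (two-sided exact permutation p = 0.10 against the yak of 4 years, the smallest possible).

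TET1 made up 72.1% ± 2.43 (SD, n = 3) of the summed TET1 and TET3 FPKM in the juvenile, 46.7% ± 5.84 in the pubertal (42% in replicate 2) and 39.2% ± 13.6 in the mature yak, and 31.7% ± 1.71 in cattle–yak. The share was above that of all other libraries in each yak of 6 months, and replicate 3 of the yak of 4 years, at 54.7%, exceeded the cattle–yak and the yak of 18 months. The difference between cattle–yak and yak of 4 years was within that spread (two-sided exact permutation p = 0.50).

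**Figure D4:**
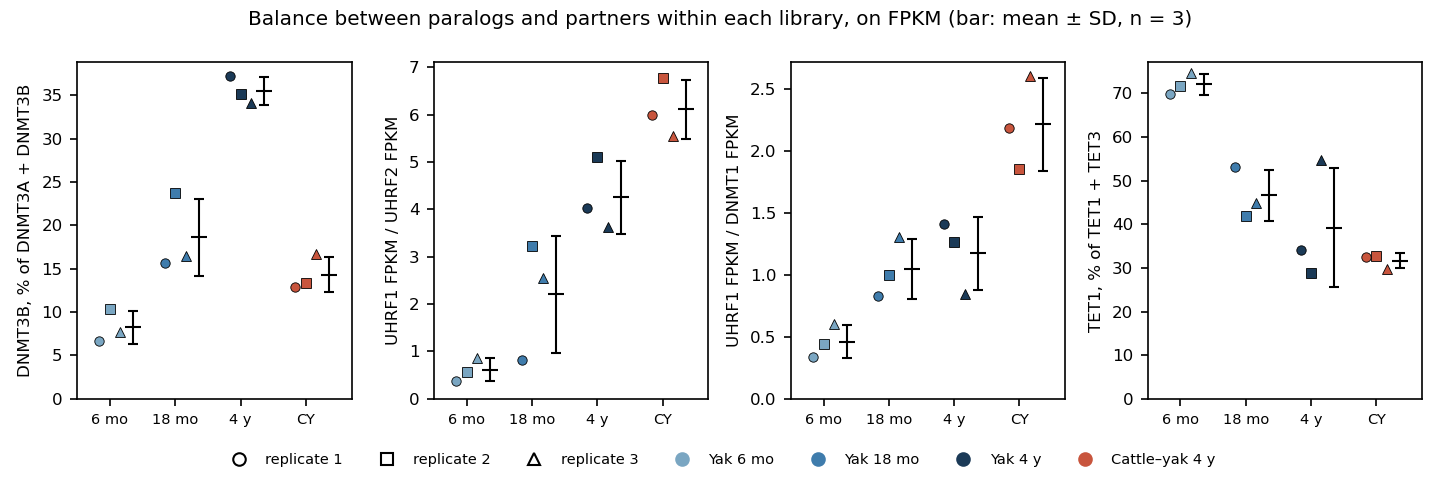
Share of DNMT3B in DNMT3A plus DNMT3B, ratio of UHRF1 to UHRF2, ratio of UHRF1 to DNMT1 and share of TET1 in TET1 plus TET3, all on FPKM, in each library with the mean ± SD of each group (n = 3; CY, cattle–yak). The DNMT3B share is 34.1% to 37.2% in yak of 4 years and 12.9% to 16.7% in cattle–yak.

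The genes that work with these enzymes were described from 6 lists of 64 genes, of which 57 were found by symbol. For cattle–yak over yak of 4 years, 22 of the 57 were higher and 6 lower, where 17.1% of all genes were higher and 27.0% lower, and their median log2 fold change was 0.45 against -0.00 over all genes. With age, in yak of 4 years over 6 months, 10 rose and 15 fell (31.0% and 24.7% of all genes), with a median of -0.40 against 0.08, and in cattle–yak over yak of 6 months 10 were higher and 6 lower (18.1% and 19.7%), with a median of 0.39 against -0.02. With library totals alone 15 rose and 8 fell with age, with a median of 0.15 against 0.64, and 25 were higher and 4 lower in cattle–yak over yak of 6 months, with a median of 0.93 against 0.52. Between neighbouring ages 0 were DTGs by edgeR, where 0.0672% and 0.0371% of all genes were. Without replicate 2 at 18 months still 0 of 56 were from 6 to 18 months (0.504% of all genes), but 8 rose and 19 fell of 57 from 18 months to 4 years (44.6% of all genes called). With all libraries, from 6 to 18 months 9 of 56 had an unadjusted p under 0.05, as did 3837 of all 14874 genes. DESeq2 called 1 of the 56, and 1061 genes higher and 807 lower in all. From 18 months to 4 years 30 of 57 had an unadjusted p under 0.05, as did 5731 of all 16175 genes. DESeq2 called 19 of the 57, and 2092 genes higher and 2291 lower in all.

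The S-adenosylmethionine cycle makes the methyl donor and clears its product. Of its 12 genes 7 were higher (MAT2A, AHCY, AHCYL1, AHCYL2, SHMT1, SHMT2 and GNMT) in cattle–yak over yak of 4 years and 1, BHMT, was lower. The median was 1.05, where 17.1% of all genes were higher and 27.0% lower. MAT2A, the synthase of S-adenosylmethionine, had 163 ± 5.67 FPKM (SD, n = 3) in cattle–yak against 58.3 ± 3.27 (log2 fold change 1.49 ± 0.113, edgeR adjusted p = 1.14e-05). BHMT, which remethylates homocysteine from betaine, had 0.450 ± 0.227 FPKM against 28.6 ± 5.71, a log2 fold change of -5.91 ± 0.362 (adjusted p = 3.94e-06), and it had 0.0200 ± 0.0173 FPKM in yak of 6 months. From 6 months to 4 years 2 rose (MTR and BHMT) and 2 fell (AHCYL1 and SHMT2), against 31.0% and 24.7% of all genes (median -0.49). With library totals alone the same genes were called (median 0.07). In cattle–yak over yak of 6 months MTR, SHMT1, BHMT and GNMT were higher and AHCYL1 lower, against 18.1% and 19.7% of all genes (median 0.65). With library totals alone 7 were higher, MAT2A among them, and 0 lower (median 1.18).

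Of 7 cofactors and partners of the TET enzymes 5 were higher and none lower in cattle–yak over yak of 4 years (17.1% and 27.0% of all genes), with a median of 1.27. The 5 were OGT, which glycosylates and binds TET proteins, the isocitrate dehydrogenases IDH1, IDH2 and IDH3A, and D2HGDH, which clears 2-hydroxyglutarate, an inhibitor of the dioxygenases. IDH2 had 157 ± 20.7 FPKM against 31.4 ± 5.25 (SD, n = 3; log2 fold change 2.22 ± 0.162, edgeR adjusted p = 9.53e-06). Between 6 months and 4 years 4 of the 7 fell in yak (OGT, CXXC4, CXXC5 and IDH1) and none rose (24.7% and 31.0% of all genes), with a median of -1.59. The same 4 fell with library totals alone (median -1.02). Relative to yak of 6 months, 2 were higher and 2 lower in cattle–yak (18.1% and 19.7% of all genes), or 3 and 2 with library totals alone.

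Base excision repair genes that work with TDG were divided. PARP1, GADD45A and GADD45G were the genes called higher in cattle–yak over yak of 4 years, and POLB, the gap-filling polymerase, and the ligase LIG3 were lower. They were among 10 genes with a median of 0.57, where 17.1% of all genes were higher and 27.0% lower. POLB had 20.2 ± 1.32 FPKM against 111 ± 6.97 (SD, n = 3; log2 fold change -2.50 ± 0.125, edgeR adjusted p = 1.58e-06), so it ran opposite to TDG. Over the ages POLB, LIG3 and NEIL3 rose and SMUG1, NEIL1, GADD45A and GADD45G fell from 6 months to 4 years (31.0% and 24.7% of all genes), with a median of -0.29. With library totals alone the median was 0.27, XRCC1 rose too, and SMUG1 and GADD45A were not called. Against the yak of 6 months 1 was higher in cattle–yak, NEIL3, and 2 were lower, NEIL1 and GADD45G (18.1% and 19.7% of all genes). GADD45G was not called with library totals alone, where 5 were higher.

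Among 9 maintenance partners the remodeller HELLS, CDCA7L, a paralog of the HELLS partner CDCA7, and the lysine methyltransferase EHMT1 exceeded in cattle–yak their level in yak of 4 years. No partner was lower, and the median was 0.84, where 17.1% of all genes were higher and 27.0% lower. HELLS had 23.9 ± 6.55 FPKM against 11.05 ± 1.14 (SD, n = 3; log2 fold change 1.11 ± 0.209, edgeR adjusted p = 0.00176). USP7, the deubiquitinase that binds DNMT1 and UHRF1, had 82.6 ± 3.57 FPKM against 132 ± 9.47 (-0.65, adjusted p = 0.00127), below the fold threshold. It was the 1 partner that rose from 6 months to 4 years, while ZBTB24 and EHMT2 fell, with a median of -0.47 (31.0% of all genes rose and 24.7% fell). Neither ZBTB24 nor EHMT2 was called with library totals alone (median 0.09). LIG1 was the 1 partner called in cattle–yak over yak of 6 months, where it was higher (37.8% of all genes were called), and 5 were with library totals alone.

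Of 12 genes that guide de novo methylation 3 exceeded the level of yak of 4 years in cattle–yak (NSD1, which writes the mark that DNMT3A reads, the demethylase KDM1B and CTCF). Another 2 were lower (MORC1 and TRIM28), with a median of 0.05, where 17.1% of all genes were higher and 27.0% lower. NSD1 had 10.04 ± 1.09 FPKM against 3.39 ± 0.393 (SD, n = 3; log2 fold change 1.58 ± 0.161, edgeR adjusted p = 5.62e-05). KDM1B, TRIM28 and CTCFL rose and NSD1 and CTCF fell in yak from 6 months to 4 years (31.0% and 24.7% of all genes), with a median of 0.34. In cattle–yak over yak of 6 months 2 were higher and 1 lower (18.1% and 19.7% of all genes). With library totals alone 5 rose and 0 fell with age (median 0.90), and 3 were higher and 1 lower in cattle–yak over yak of 6 months. Of 7 readers of methylated CpG 1 was higher (ZBTB38) and 1 lower (MBD6) in cattle–yak than in yak of 4 years (17.1% and 27.0% of all genes). Each was the opposite in yak of 4 years over 6 months, where 31.0% of all genes rose and 24.7% fell. In cattle–yak over yak of 6 months 0 were DTGs by edgeR or DESeq2, where edgeR called 37.8% of all genes. There 4 had an unadjusted p under 0.05, as did 9786 of 15571 genes. The medians were -0.02, -0.19 and 0.29. With library totals alone ZBTB38 was not called with age, where 3 readers rose (median 0.39), and 2 were higher in cattle–yak over yak of 6 months.

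**Figure D5:**
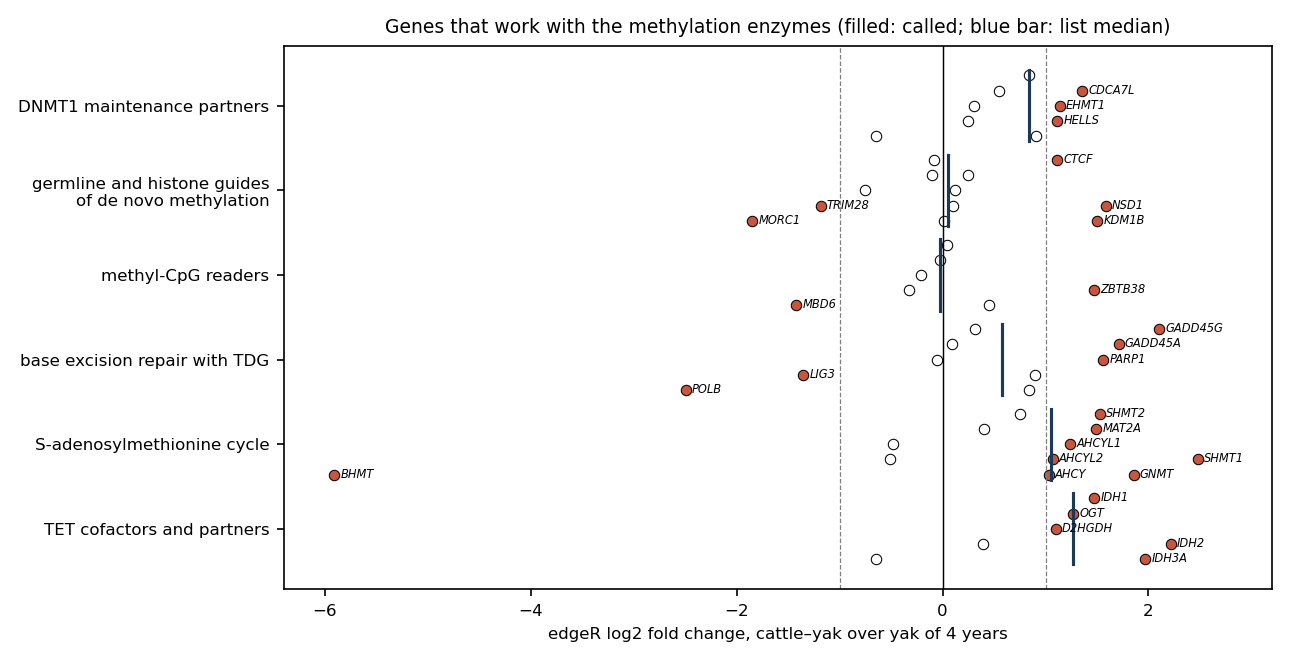
Log2 fold changes (x axis, edgeR) in cattle–yak over yak of 4 years of the 57 genes found on the 6 lists, 1 point per gene, filled and named where it was a DTG, with the median of each list as a bar. The medians run from -0.02 for the readers to 1.27 for the TET cofactors, and BHMT stands at -5.91.

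The genes whose level over the 12 libraries was most like that of each member were named from log2 CPM with TMM scaling by Pearson correlation with 7027 or 7028 other genes, as a description only, since the libraries share groups and depth. For DNMT1 they were CKAP2 (0.942), NIPBL (0.941) and TOP2A (0.932). For UHRF1 they were FXR2 (0.979), CHAF1A (0.978), a subunit of the chromatin assembly factor, and PCYT1A (0.976). UHRF2 was nearest to TFCP2 (0.927), PDCD4 (0.905) and IFT46 (0.894). DNMT3A was nearest to SCARA5 (0.965), KLF3 (0.960) and LAMA4 (0.952), and DNMT3B to ATP10A (0.963), ZNF574 (0.963) and ZNF212 (0.960).

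The nearest genes to TET1 were LUM (0.988), an extracellular matrix proteoglycan, FKBP9 (0.987) and HSD3B7 (0.984). Those to TET3 were P3H2 (0.973), P3H3 (0.972), both collagen prolyl hydroxylases, and TBC1D25 (0.971). TDG was nearest to NFE2L2 (0.987), a regulator of the oxidative stress response, NCOA4 (0.986) and COPZ2 (0.985). Among the members themselves the correlation over the 12 libraries was highest between DNMT3A and TET1 (0.902) and lowest between DNMT3B and TDG (-0.949), and that between DNMT1 and UHRF1 was 0.746.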

How the data were processed

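Testis Ribo-seq of 3 yak each at 6 months, 18 months and 4 years and of 3 cattle–yak was analysed from the deposited comparison tables. The authors used fastp to filter the reads, Bowtie2 to take out rRNA and BLAST for other non-coding RNA, kept fragments of footprint length, aligned them with STAR to the yak genome BosGru 3.0 and counted them with RSEM. The deposited expected counts are whole numbers per gene, and the deposited FPKM values were normalized by the authors to gene length and library total. Footprints are short, so the division of reads between paralogs such as DNMT3A and DNMT3B rests on RSEM and was not tested. The tables also hold the authors' own fold changes and p-values, which were not used.

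Counts were read once per library (0 values differed where a library recurred) and tested for each pair of groups with edgeR 4.0.16 in R 4.3.3 (filterByExpr, TMM, quasi-likelihood, no covariates), and p-values were adjusted by Benjamini-Hochberg over all tested genes. The DTG thresholds (adjusted p 0.05, absolute log2 fold change 1) are those of the authors' methods, which used DESeq2. Confidence intervals are at 95%, from the SE by the normal approximation, and are narrower than edgeR's test implies. For DNMT3A in yak of 18 months over 6 months the interval was wholly negative, -0.77 to -0.06, though the unadjusted edgeR p was 0.0573. Ratios were compared by exact permutation tests. Alternatives were DESeq2 1.42.0, RLE factors, library totals alone, no filter on low counts, 1 fit of all 12 libraries, limma 3.58.1 on log2(FPKM + 1) and log2(FPKM + 0.1), a replicate block and each library left out.

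The members, the pathway and marker lists and the comparisons were chosen with earlier results of these data known, and the comparison of yak of 4 years with 6 months was added after the values were seen. Named genes were all members, genes of the pathway lists (2 genes of these lists are not reported here and are left out of their counts), and for each member the 3 genes with a symbol of above-median level with the highest correlation over the 12 libraries. Replicate numbers did not pair the libraries. No coordinates are given, because the annotation at hand is of another assembly.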

Additional observations from a re-analysis of the deposited data

How the results depend on the processing

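The number of members called depended little on the processing in cattle–yak over yak of 4 years, where 2 were called and 2 to 3 with a library left out. In cattle–yak over yak of 6 months it went from 2 to 1 with limma on log2(FPKM + 1), where TET1 was at -0.90 in place of -2.73. That setting both shrinks low levels such as those of TET1 and leaves out TMM, and their shares were not tested. In yak of 4 years over 6 months it went from 5 to 3 with the same setting, and was 4 to 6 with a library left out. These are net counts, and the genes called can differ at the same count. With library totals alone it stayed at 5, but DNMT1 was called and TET3 was not. In yak of 4 years over 6 months the smallest alternative estimates of TET1, TDG and TET3 were -0.99, -0.97 and -0.19, all short of the fold threshold. In yak of 18 months over 6 months the number called went from 0 to 1 with DESeq2 and with all 12 libraries in 1 fit (0 to 1 with a library left out), and in yak of 4 years over 18 months from 0 to 1 with DESeq2 and with all 12 libraries in 1 fit (0 to 4 with a library left out). Leaving out replicate 1 of both younger ages together, an alternative added after seeing the data, left the count at 0.

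Directions turned for DNMT1 in yak of 18 months over 6 months, to -0.16 without replicate 1 at 6 months and -0.26 without replicate 2 at 18 months, for TET3 in the same comparison, to 0.24 with library totals alone, 0.088 and 0.20 with limma on log2(FPKM + 1) and log2(FPKM + 0.1) and 0.016 without replicate 2 at 18 months, and for UHRF2 in cattle–yak over yak of 4 years, to -0.078 without replicate 1 of the cattle–yak. In cattle–yak over yak of 6 months TET3 turned to 0.29, 0.11 and 0.25 and TDG to 0.15, 0.14 and 0.15 with library totals alone and the 2 limma settings. None of these settings uses TMM. The cause of the turns was not tested. With a library left out, DNMT1 in yak of 18 months over 6 months ran from -0.26 to 0.33, TET3 from -0.29 to 0.016, and UHRF2 in cattle–yak over yak of 4 years from -0.078 to 0.30. Over all alternatives of single members 533 kept direction and call, 14 gained a call, 8 lost it and 13 turned.

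With the replicate block the members called were 0, 0, 2, 2 and 5, as without it, and it changed no member's call. Over all genes the block moved the calls from 3 higher and 7 lower to 235 and 303 in yak of 18 months over 6 months, and from 6 to 0 in yak of 4 years over 18 months. Numbers were not taken as pairs: same-numbered libraries correlated between -0.085 and 0.048 in their deviations from the group means, and at most 4 of 6 libraries correlated best with their own number.

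Calls over all genes also moved with the tool where the 18-month yak took part. DESeq2 called 1061 higher and 807 lower in yak of 18 months over 6 months and 2092 and 2291 in yak of 4 years over 18 months. Counts of 18 to 51 for TET1 and TET3 in yak of 4 years limit what can be said of those 2 genes.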
